A study of Homo sapiens with 8 samples.

Results

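The ADAM genes encode membrane-anchored proteins with a disintegrin and a metalloprotease domain, and 10 of them were followed here after silencing of HMGA1 (a chromatin protein that bends AT-rich DNA). They were ADAM8, ADAM9, ADAM10, ADAM12, ADAM15, ADAM17, ADAM19, ADAM22, ADAM23 and ADAM28, and every probe set that the platform annotation assigns to 1 of these genes alone was taken. This gave 36 of the 54613 probe sets tested, and 10 of 19775 genes. The cells were MDA-MB-231, a human basal-like breast cancer line without oestrogen receptor, transfected with an siRNA against HMGA1 (siHMGA1, 4 arrays) or a control siRNA (siCTRL, 4 arrays), and RNA was extracted 72 h later. Each group's arrays are labelled as biological replicates, and the titles of both groups carry the same numbers, each after the letters exp. With no word on how the cultures were kept apart, p-values measure only the spread between these arrays. Values are log2 probe set signals, on which a difference of 1 is a doubling, and a log2 fold change is siHMGA1 minus siCTRL throughout. Arrays measure the RNA of the whole culture, so fewer cells expressing a gene and less of its RNA per cell cannot be told apart.

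Active ADAM proteases cut the outer part of other membrane proteins close to the cell surface, a step called ectodomain shedding, which frees growth factors and cytokines and trims adhesion molecules and receptors. They are made as inactive precursors, which proprotein convertases such as furin process, and partner proteins carry them to the surface. ADAM10 and ADAM17 are the best known sheddases, ADAM8, ADAM9, ADAM12, ADAM15, ADAM19 and ADAM28 also carry a catalytic site, and ADAM22 and ADAM23 have lost it and act as receptors for secreted LGI proteins in the nervous system.

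ADAM19 and ADAM17, which changed most in each direction, are shown with the stretch around their transcription start, since HMGA1 is known for binding AT-rich DNA. RefSeq promoter windows of GRCh38.p14, from 250 bases before to 50 bases after the start, were found for 8 of the 10 genes, all but ADAM9 and ADAM28. The ADAM17 window is chr2:9555781-9556080 and the ADAM19 window chr5:157575726-157576025, both on the minus strand and written 5′ to 3′ in the direction of transcription. Capitals mark the GC box, searched as GGGCGG on either strand, so that it also appears as CCGCCC.
ADAM17: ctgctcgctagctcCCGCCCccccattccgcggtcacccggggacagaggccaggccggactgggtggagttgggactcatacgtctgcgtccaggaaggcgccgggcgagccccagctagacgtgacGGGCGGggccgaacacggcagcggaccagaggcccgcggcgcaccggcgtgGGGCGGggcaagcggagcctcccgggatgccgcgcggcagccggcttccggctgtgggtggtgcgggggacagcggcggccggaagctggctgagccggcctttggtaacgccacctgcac
ADAM19: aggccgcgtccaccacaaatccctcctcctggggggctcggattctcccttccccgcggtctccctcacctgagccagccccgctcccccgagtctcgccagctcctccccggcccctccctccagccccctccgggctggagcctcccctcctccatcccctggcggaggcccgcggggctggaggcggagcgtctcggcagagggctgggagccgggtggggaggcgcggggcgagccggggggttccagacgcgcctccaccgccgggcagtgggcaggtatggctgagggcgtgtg
The ADAM17 window held 3 GC boxes and the ADAM19 window held 0. Of the 8 windows, 7 held at least 1 GC box, against 45.0% of all 35116 windows, and ADAM15 held the most, 6. The letters TATAAA, on either strand, were in 0 of the 8 windows and in 11.5% of all windows. AT content was 25.3% in ADAM17 and 24.3% in ADAM19. Over the 8 windows it was 20.7 to 33.7%, all under the median of 41.3% over all windows. A run of at least 6 A or T bases was found in 1 of the 8 windows, that of ADAM12, with a longest run of 8, and in 61.2% of all windows. A match is a description of these letters and not a binding site.

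HMGA1 itself was lower in every siHMGA1 array. Its brighter probe set, 206074_s_at, read 12.62, 12.84, 12.69 and 12.85 in siCTRL and 10.11, 10.37, 10.29 and 10.57 in siHMGA1, a log2 fold change of -2.42 (standard error 0.0981, limma adjusted p = 5.2e-08). The exact two-sided permutation p was 0.0286, the smallest that 4 arrays against 4 allow. Array medians ran from 6.07 to 6.12, and the correlation between arrays was 0.995 to 0.998 within groups and 0.989 to 0.992 between them. The basal and mesenchymal markers of the line had mean log2 signals of 13.2 to 13.3 in the arrays of both groups, with 0 of 6 under 6, a level taken here as dim. That mean joins opposite changes, since EGFR and AXL were higher, with log2 fold changes of 0.32 and 0.19, and MSN was lower, with -0.34. The call of AXL was lost in several alternative settings. Among them were cyclic loess (limma adjusted p = 0.0908) and a block for the replicate number (limma adjusted p = 0.0782). Of 9 luminal and epithelial markers, 3 were dim, namely PGR, FOXA1 and CDH1. The mean of these 9 was 8.43 to 8.56 in siCTRL and 8.63 to 8.71 in siHMGA1, without overlap, and KRT19 and EPCAM among them rose by log2 fold changes of 0.69 and 0.38. The mean of 5 fibroblast markers was 5.82 to 5.99 in siCTRL and 6.10 to 6.24 in siHMGA1, again without overlap, and 3 of the 5 were dim. LUM and COL1A1 among them rose, by 0.65 and 0.51. The ranges were 5.74 to 5.81 and 5.81 to 5.94 for 5 leukocyte markers, of which PTPRC rose from 4.67 to 5.17 while dim in both groups, and 5.68 to 5.93 and 5.77 to 5.95 for 4 endothelial markers. The part of these markers in the results on ADAM genes was not tested.

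After HMGA1 silencing the ADAM genes did not move together. Of the 36 probe sets, 2 were lower, those of ADAM19 and ADAM9, 7 were higher, 3 of ADAM17, 2 of ADAM10 and 1 each of ADAM22 and ADAM28, and 27 were not called at a limma adjusted p under 0.05 over all 54613 probe sets. The 9 called are 25% of the 36, against 22.1% of all probe sets, of which 10.4% were lower and 11.7% higher, so the share called was near that of the array as a whole. Of all calls 47.1% were lower, and 29.1% after centring the arrays on housekeeping genes, which left the 9 calls in place. Of the 8 housekeeping genes used, 2 were themselves lower, TBP (-0.64) and HPRT1 (-0.34), and 1 was higher, YWHAZ (0.18). The call of YWHAZ was lost in several alternative settings, among them cyclic loess (limma adjusted p = 0.125) and a block for the replicate number (limma adjusted p = 0.09996). The median log2 fold change of the 36 was 0.01, as it was over all probe sets. The groups did not overlap in 10 of the 36 probe sets, against 25.5% of all. Past the thresholds that the methods name for the arrays, a log2 change beyond 1.4 together with an adjusted p below 1e-04, there was 1 of the 36, ADAM19, against 0.396% of all probe sets.

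**Figure D1:**
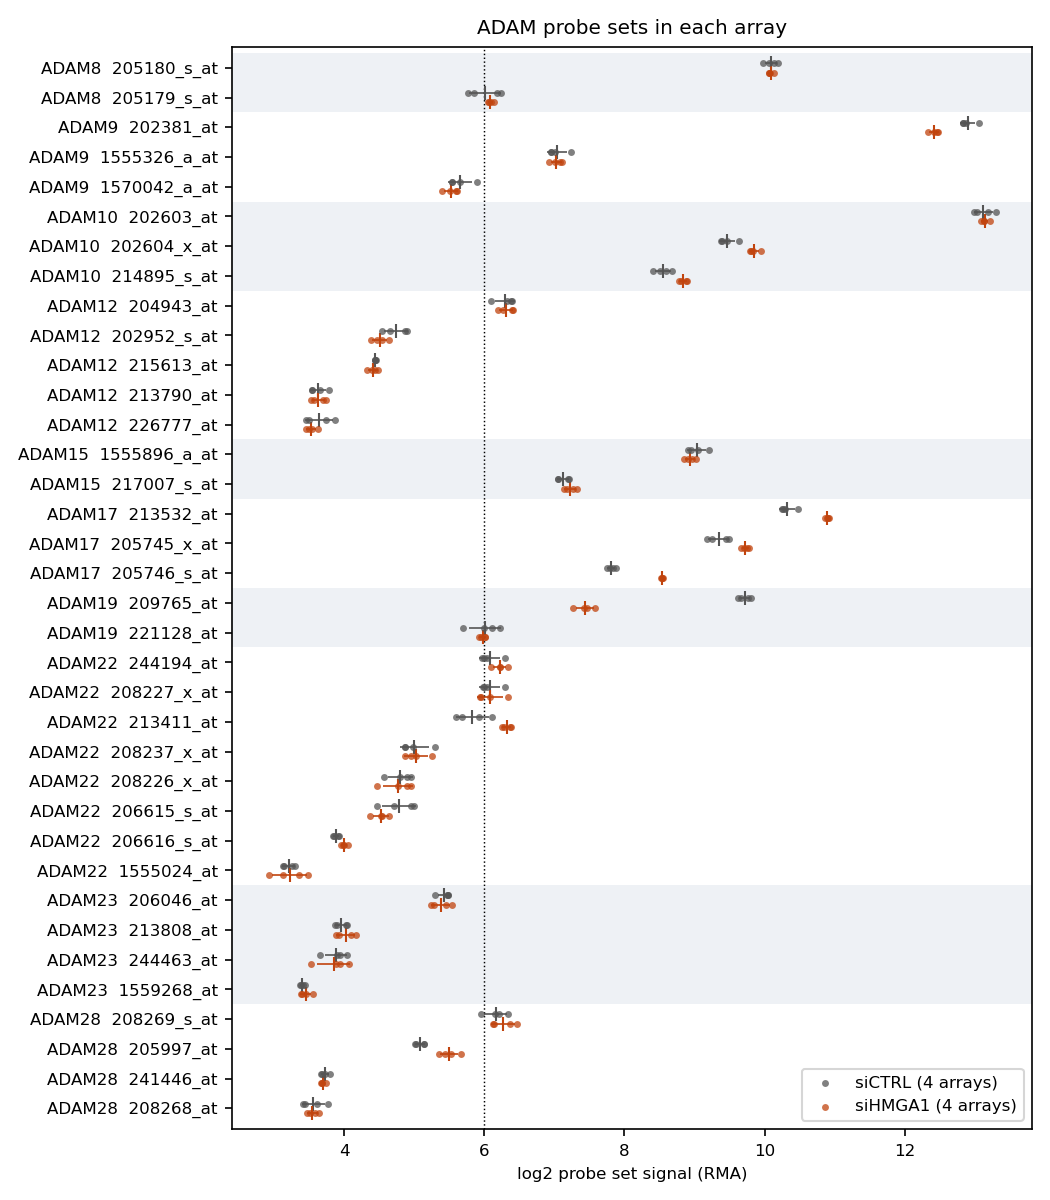
Log2 signal of each of the 36 ADAM probe sets (x axis) in the 4 siCTRL arrays (grey) and the 4 siHMGA1 arrays (orange), with vertical marks at the group means, bars of 1 SD and a dotted line at a signal of 6. ADAM10 202603_at and ADAM9 202381_at lie above 12 in all 8 arrays, the 4 probe sets of ADAM23 lie under 6, and ADAM19 209765_at shows the widest gap between the groups.

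Calls were mostly made on bright probe sets. Of the 36 probe sets, 18 had a mean of at least 6 over the 8 arrays, and 2 of these were lower and 6 higher. Among the 6, ADAM22 213411_at had a mean of 5.83 in siCTRL and 6.32 in siHMGA1, so it passed 6 only through the group in which it was higher. The other 18 were dim, and 0 were lower and 1 higher. Over all probe sets, 37.1% of those with a mean of at least 6 and 6.21% of the dimmer ones were called. Among the 27 that were not called, log2 fold changes ran from -0.26 to 0.15 and their 95% intervals reached from -0.51 to 0.34, the lowest adjusted p from limma was 0.104, and 2 had an unadjusted p under 0.05.

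ADAM19, also called meltrin beta, cuts neuregulins and is needed for heart development in the mouse. It had the largest change of the 36. Its bright probe set, 209765_at, read 9.81, 9.66, 9.63 and 9.76 in siCTRL and 7.46, 7.43, 7.27 and 7.58 in siHMGA1. All siHMGA1 arrays lay more than 2 log2 units under the lowest siCTRL array. The means were 9.71 ± 0.0831 and 7.43 ± 0.126 (SD, n = 4 each), which gives a log2 fold change of -2.28 (standard error 0.0783, 95% interval -2.45 to -2.11, limma adjusted p = 2.68e-08), or 4.86-fold lower. Of all 54613 probe sets, 12 fell by more. The second ADAM19 probe set, 221128_at, was dim, with a mean of 5.99 over the 8 arrays. It read 6.003, 6.22, 6.11 and 5.70 in siCTRL and 5.95, 5.92, 6.02 and 6.01 in siHMGA1. Here the groups overlapped, and the log2 fold change was -0.03 (95% interval -0.25 to 0.19). The difference between both probe sets within an array changed by -2.25 (95% interval -2.54 to -1.95, limma adjusted p = 2.46e-06 over all 21316 such pairs). The fall of ADAM19 was thus seen by 209765_at alone. Low signals are compressed by background, so a dim probe set has little room to show such a fall. This difference therefore cannot tell whether both probe sets disagree.

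ADAM9, or meltrin gamma, is a widely expressed member. The signal of 202381_at was 12.84, 12.83, 13.06 and 12.87 in siCTRL and 12.33, 12.41, 12.48 and 12.46 in siHMGA1. The groups were apart, and the log2 fold change was -0.48 (standard error 0.0727, 95% interval -0.64 to -0.32, limma adjusted p = 4.54e-04), or 1.39-fold lower. The 2 less bright ADAM9 probe sets did not show this fall, with -0.01 for 1555326_a_at and -0.13 for 1570042_a_at, both not called. Of these, 1570042_a_at was dim, with a mean of 5.59 over the arrays, which leaves it little room to show a fall. Their differences from the bright probe set were called (-0.47, adjusted p = 0.0107, and -0.35, adjusted p = 0.0454, both from limma over all pairs).

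ADAM17, the TNF-converting enzyme, was the only one of the 10 genes whose probe sets were all called, and all 3 rose. The brightest, 213532_at, read 10.48, 10.26, 10.25 and 10.30 in siCTRL and 10.92, 10.87, 10.91 and 10.90 in siHMGA1, a log2 fold change of 0.58 (95% interval 0.42 to 0.73, limma adjusted p = 8.22e-05). The probe set 205746_s_at read 7.79, 7.88, 7.84 and 7.75 in siCTRL and 8.54, 8.55, 8.52 and 8.54 in siHMGA1. This was the largest rise of the 36, with means of 7.82 ± 0.0572 and 8.54 ± 0.0137 (SD, n = 4 each) and a rise of 0.72 on the log2 scale (standard error 0.0605, 95% interval 0.59 to 0.85, limma adjusted p = 5.04e-06), or 1.65-fold higher. Over the whole array, 642 probe sets rose by more. The third ADAM17 probe set, 205745_x_at, read 9.49, 9.18, 9.45 and 9.25 in siCTRL and 9.71, 9.67, 9.78 and 9.75 in siHMGA1, a log2 fold change of 0.38 (95% interval 0.21 to 0.56, limma adjusted p = 0.0041). In each of the 3 the lowest siHMGA1 array lay above the highest siCTRL array. The changes of both other probe sets were not called different from that of 213532_at (adjusted p = 0.142 and 0.289 from limma over pairs), with intervals of the difference of 0.01 to 0.38 and -0.34 to 0.05.

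ADAM10, which cuts Notch receptors, cadherins and the amyloid precursor protein, gave a split picture. Its brightest probe set, 202603_at, read 13.30, 12.99, 13.18 and 13.03 in siCTRL and 13.14, 13.09, 13.21 and 13.13 in siHMGA1, with overlapping groups and a log2 fold change of 0.02 (95% interval -0.15 to 0.19). The other ones both rose. For 202604_x_at the signals were 9.63, 9.40, 9.47 and 9.38 in siCTRL and 9.80, 9.83, 9.95 and 9.81 in siHMGA1 (log2 fold change 0.38, limma adjusted p = 0.0028). For 214895_s_at they were 8.68, 8.51, 8.60 and 8.41 in siCTRL and 8.88, 8.81, 8.90 and 8.77 in siHMGA1 (log2 fold change 0.29, limma adjusted p = 0.0136). In both, the groups did not overlap. The brightest probe set differed from both of these in its change (-0.36, adjusted p = 0.0050, and -0.27, adjusted p = 0.0249, from limma over pairs). Names ending in _x_at or _s_at mark probe sets that can match more than 1 transcript, and without them the number of higher ADAM probe sets was 3 in place of 7, since 4 of the 7 carry such a name.

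**Figure D2:**
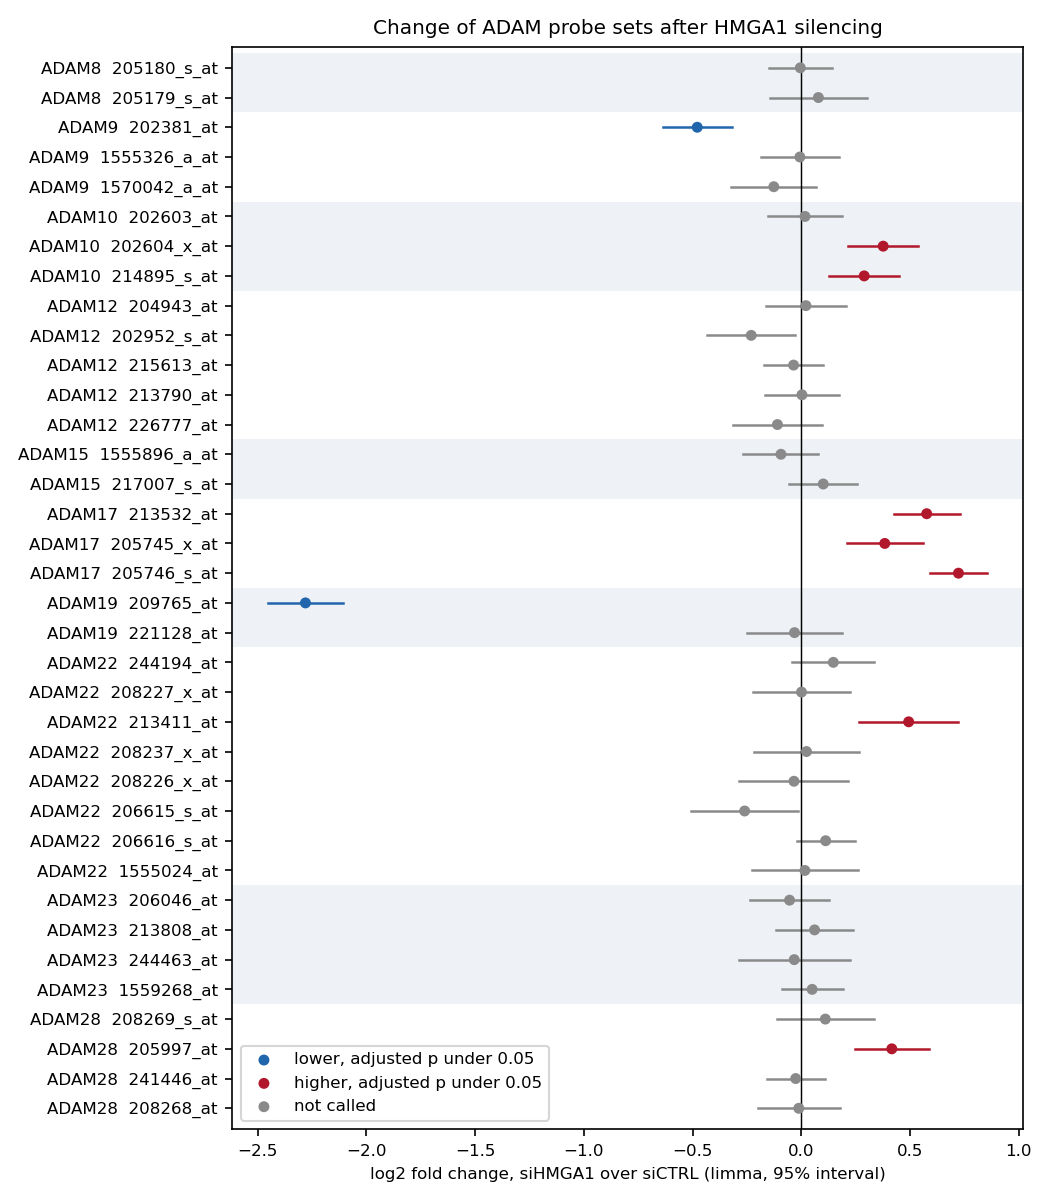
Log2 fold change of each ADAM probe set (x axis, siHMGA1 over siCTRL) with its 95% interval from limma, in blue where lower, red where higher and grey where not called. ADAM19 209765_at stands at -2.28, the 3 probe sets of ADAM17 lie between 0.38 and 0.72, and 27 probe sets are grey.

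Among 26 pairs formed by the brightest probe set of a gene and each of its others, 6 differed in their change (limma, adjusted p under 0.05), against 20.4% of all 21316 pairs. They were the 2 pairs of ADAM9, the 2 of ADAM10, 1 of ADAM19 and 1 of ADAM22. The less bright probe set was dim in the ADAM19 pair and in the ADAM9 pair with 1570042_a_at. Without siCTRL replicate 3, or without siHMGA1 replicate 1, 3 pairs differed.

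ADAM22 and ADAM23, the members without protease activity, were low in these cells. Of 8 ADAM22 probe sets 5 were dim, and the highest mean was 6.15. One of the 8 was called, 213411_at, which read 5.92, 5.68, 5.60 and 6.11 in siCTRL and 6.38, 6.37, 6.29 and 6.25 in siHMGA1. The groups did not overlap, and the log2 fold change was 0.49 (95% interval 0.27 to 0.72, limma adjusted p = 0.0042). The brightest ADAM22 probe set, 244194_at, had 0.15 (95% interval -0.04 to 0.34), and the difference between both was called (-0.35, limma adjusted p = 0.0215 over pairs). The other 6 ranged from -0.26 to 0.11. In 206616_s_at, at 0.11, the groups lay apart, with an adjusted p of 0.246 from limma. All 4 ADAM23 probe sets were dim, with log2 fold changes of -0.05 to 0.06 and 0 called.

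ADAM28, a protease first described in lymphocytes, was also low. The dim probe set 205997_at read 5.03, 5.01, 5.14 and 5.14 in siCTRL and 5.36, 5.44, 5.66 and 5.53 in siHMGA1. These groups did not overlap, with a log2 fold change of 0.42 (95% interval 0.24 to 0.59, limma adjusted p = 0.0021). Of the other ADAM28 probe sets, the brightest, 208269_s_at, had 0.11 and the others -0.03 and -0.01, with 0 called. Of the measured leukocyte markers only PTPRC was called, and it rose while dim. CD3E had -0.09, CD14 -0.09, ITGAM 0.01 and LCP2 0.15, not called. Any link between these markers and the ADAM28 signal was not tested.

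ADAM8, a protease first found on leukocytes, was expressed and gave no call. Its probe set 205180_s_at read 10.13, 10.19, 10.06 and 9.98 in siCTRL and 10.07, 10.08, 10.06 and 10.14 in siHMGA1, a log2 fold change of 0.00 (95% interval -0.15 to 0.14), and 205179_s_at had 0.08 (95% interval -0.14 to 0.30). ADAM15, whose human disintegrin domain carries the integrin-binding RGD motif, was read at 8.95, 9.21, 8.91 and 9.05 in siCTRL and 8.85, 9.02, 8.91 and 8.97 in siHMGA1 by 1555896_a_at. Its log2 fold changes were -0.09 (95% interval -0.27 to 0.08) and, for 217007_s_at, 0.10 (95% interval -0.06 to 0.26). For both genes the groups overlapped, and the intervals leave room for changes of up to 0.30. ADAM12, or meltrin alpha, had 5 probe sets, 4 of them dim. The brightest, 204943_at, read 6.10, 6.32, 6.39 and 6.38 in siCTRL and 6.41, 6.40, 6.20 and 6.27 in siHMGA1, and the 5 log2 fold changes were -0.23 to 0.02, with 0 called. The lowest of these, 202952_s_at, had an unadjusted p of 0.0285 and an adjusted p of 0.104 from limma.

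The genes whose signal was most like that of the ADAM19 probe set 209765_at over the 8 arrays were CMTM7, RCAN3 and TGFBI, each with a Pearson r of 0.998 among 12710 genes. Their own log2 fold changes were -1.40, -0.64 and -1.68. For the ADAM17 probe set 205746_s_at they were SC5D, CBLB and WASF3, with r of 0.998, 0.998 and 0.997 and log2 fold changes of 0.78, 1.35 and 0.39. These values rest on the gap between the groups, which many genes share, since 1123 genes for ADAM19 and 850 for ADAM17 had an r over 0.95. After the group means were taken off, r was 0.615 for CMTM7, 0.665 for RCAN3 and 0.945 for TGFBI, and 0.886, 0.711 and 0.787 for SC5D, CBLB and WASF3.

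Genes that work with ADAM proteases were counted through the brightest probe set of each gene, in 10 lists of 113 genes, of which 107 were measured. Of these, 12 were lower and 24 higher by the same limma threshold, with a median log2 fold change of 0.05. Over all 19775 genes 13.3% were lower and 13.9% higher, with a median of 0.01. Counted the same way, 2 of the 10 ADAM genes were lower and 1 higher. Of 11 other ADAM genes, 9 were measured, 8 were dim and 0 were called, with 0 at an unadjusted p under 0.05. The 9th, ADAM33, had means of 7.97 and 7.88 (log2 fold change -0.09, 95% interval -0.24 to 0.07).

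**Figure D3:**
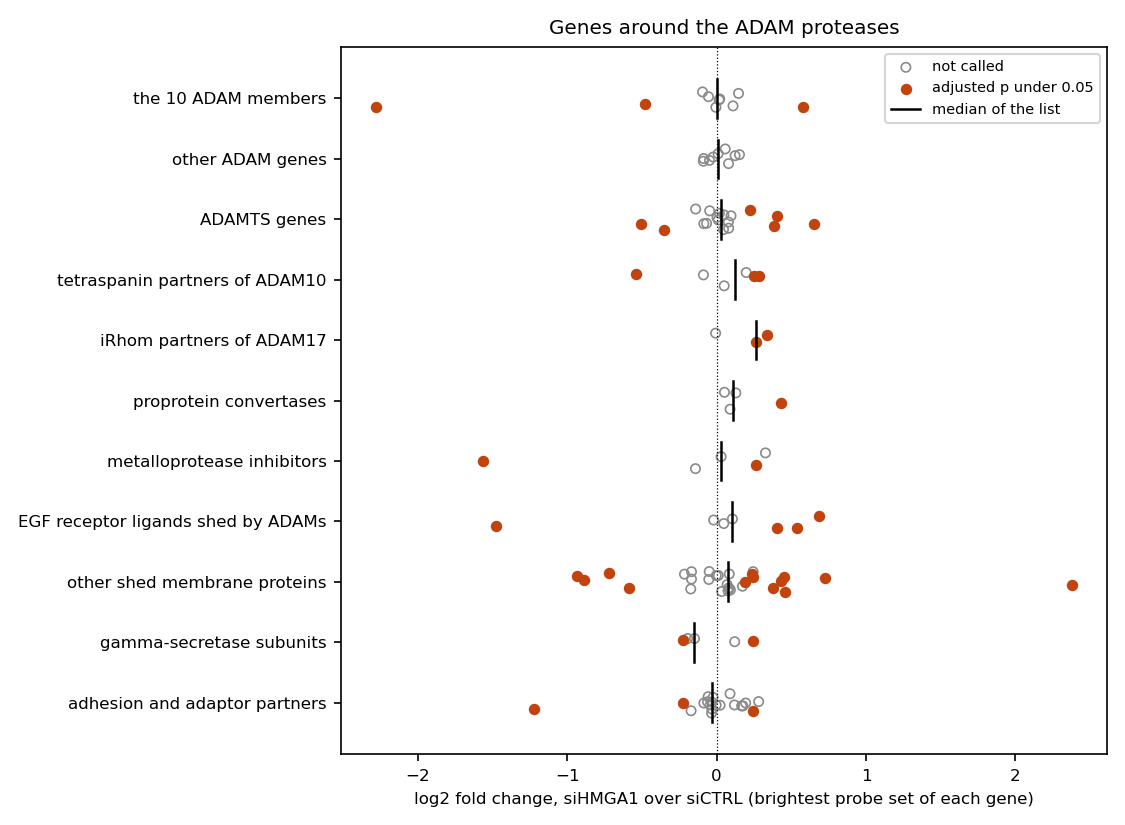
Log2 fold change (x axis, siHMGA1 over siCTRL) of the brightest probe set of each gene in the 10 ADAM genes and the 10 lists around them, filled where the adjusted p from limma was under 0.05, with a bar at the median of each list. Most genes lie within 0.5 of 0, and ADAM19, TIMP4, HBEGF and SH3PXD2A at the left and ERBB4 at the right stand far from their lists.

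Partners that carry ADAM proteases to the surface changed by at most 0.54. Both iRhom genes, whose products bring ADAM17 out of the endoplasmic reticulum, rose. RHBDF1 (iRhom1) read 8.96, 9.16, 8.96 and 9.00 in siCTRL and 9.27, 9.36, 9.28 and 9.20 in siHMGA1, a log2 fold change of 0.26 (limma adjusted p = 0.018). RHBDF2 (iRhom2) read 7.27, 7.45, 7.22 and 7.15 in siCTRL and 7.56, 7.61, 7.62 and 7.63 in siHMGA1, a log2 fold change of 0.33 (limma adjusted p = 0.0057). In neither did the groups overlap, but the call of RHBDF1 was lost without siCTRL replicate 3 (limma adjusted p = 0.0510) and without siHMGA1 replicate 2 (limma adjusted p = 0.0589). FRMD8, which stabilises the iRhoms, had -0.01 (95% interval -0.16 to 0.15). Of the 6 tetraspanins that escort ADAM10, 1 was lower and 2 were higher. TSPAN14 fell by 0.54, with 9.57, 9.75, 9.67 and 9.69 in siCTRL and 9.11, 9.13, 9.10 and 9.18 in siHMGA1 (limma adjusted p = 7.30e-05). TSPAN17 and TSPAN5 rose by 0.28 and 0.25, while TSPAN15 had 0.05, TSPAN33 0.20 and TSPAN10 -0.09, not called. The call of TSPAN5 was lost in 6 of the alternative settings, with a highest limma adjusted p of 0.0876. Of 4 proprotein convertases, 1 was higher, PCSK5 (0.43), and FURIN had 0.05.

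Of 5 inhibitors of metalloproteases, TIMP4 was lower and RECK, a membrane-anchored inhibitor, was higher. TIMP4 read 9.55, 9.92, 9.65 and 9.68 in siCTRL and 7.95, 8.17, 8.17 and 8.27 in siHMGA1, a log2 fold change of -1.56 (standard error 0.0930, limma adjusted p = 4.60e-07). RECK had 0.26 (limma adjusted p = 0.0323), and its call was lost in 7 of the alternative settings (highest limma adjusted p = 0.0883). TIMP3, the inhibitor of ADAM17, had -0.14 (95% interval -0.29 to 0.00), TIMP1, which inhibits ADAM10, had 0.33 (95% interval 0.04 to 0.61, limma adjusted p = 0.105) and TIMP2 had 0.03.

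The substrates moved in both directions. Of 7 measured ligands of the EGF receptor family that ADAM proteases release, 1 was lower and 3 were higher. HBEGF, a ligand released by ADAM17, read 10.27, 10.38, 10.14 and 10.36 in siCTRL and 8.61, 8.81, 8.89 and 8.94 in siHMGA1, a log2 fold change of -1.47 (limma adjusted p = 3.90e-07). EREG, also released by ADAM17, read 9.83, 9.88, 10.02 and 9.75 in siCTRL and 10.41, 10.52, 10.65 and 10.62 in siHMGA1, a log2 fold change of 0.68 (limma adjusted p = 6.49e-05). The groups were apart in both ligands. EGF and BTC, which ADAM10 cuts, rose by 0.54 and 0.40 at low signals. BTC was dim, its groups overlapped, and its call was lost in 1 of the alternative settings. TGFA had -0.02 and NRG1, which ADAM19 can cut, 0.11, both not called. Among 30 other shed membrane proteins, 4 were lower and 9 higher. The receptor ERBB4 went from 5.15, 4.53, 5.15 and 4.45 in siCTRL to 7.14, 7.42, 7.17 and 7.06 in siHMGA1, a log2 fold change of 2.38 from a dim level (limma adjusted p = 1.01e-06). The heparan sulphate proteoglycan SDC1 fell by 0.93 and the adhesion molecule L1CAM fell by 0.89, while the death receptor FAS rose by 0.73. Of the Notch receptors, which ADAM10 cuts before gamma-secretase does, NOTCH1 had -0.17 and NOTCH2 0.00, not called. Of the Notch ligands in this list, JAG1 fell by 0.72, from a mean of 12.97 to 12.25, with the groups apart (limma adjusted p = 3.53e-05). DLL1, which was dim, had -0.05 and DLL4 had 0.01, both not called. Of 5 measured gamma-secretase subunits, APH1A was lower (-0.22) and PSEN2 higher (0.24), calls that were lost in 5 and 4 of the alternative settings.

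Of 20 partners in adhesion and of the cytoplasmic tails, 2 were lower and 1 higher. SH3PXD2A (TKS5), an invadopodium scaffold that binds the tails of ADAM12, ADAM15 and ADAM19, read 10.72, 10.45, 10.52 and 10.57 in siCTRL and 9.36, 9.36, 9.25 and 9.39 in siHMGA1. It fell by 1.22 on the log2 scale, with the groups apart (standard error 0.0729, limma adjusted p = 4.61e-07). DLG1 had -0.22 and the kinase SRC 0.24, while ITGB1, the beta1 integrin, had -0.04 and was not called. The call of SRC was lost in 6 and that of DLG1 in 2 of the alternative settings. Of 18 measured ADAMTS genes, the secreted relatives with thrombospondin repeats, 2 were lower and 4 higher. ADAMTS9 read 8.68, 8.47, 8.48 and 8.23 in siCTRL and 9.21, 9.08, 9.06 and 9.12 in siHMGA1 (log2 fold change 0.66, limma adjusted p = 2.18e-04). ADAMTS16 and ADAMTS17 rose by 0.40 and 0.39, and ADAMTS3 fell by 0.50.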

How the data were processed

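Total RNA of MDA-MB-231 cells, extracted 72 h after transfection, was hybridised to Affymetrix hgu133plus2 arrays, 4 for siCTRL and 4 for siHMGA1. As deposited, each value is the log2 signal of a probe set, made by the authors with RMA, which subtracts background, equalises the distribution of probe signals between arrays and summarises each probe set. That step would take out a shift shared by most transcripts. RMA and affy are named, with no version, in the submitters' notes on processing. One section of the methods gives another array type and another gives 3 replicates, while the table holds 4 arrays per group. Low signals are compressed by background, and precision depends on how many arrays there are, since a signal has no read depth.

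Of 54675 probe sets, 62 controls were left out. The platform annotation gave 41091 a single gene, 1801 several genes and 11721 no gene name here. Symbols were compared with RefSeq by gene identifier, and 54 identifiers found no match. The 2 groups were compared with limma 3.58.1 in R 4.3.3, under default settings, and p-values were adjusted by Benjamini and Hochberg's method over all 54613 probe sets. Differences between the brightest probe set of a gene and its others were fitted in the same way over 21316 pairs. The steps were tested on simulated data.

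All probe sets of the 10 ADAM genes are given. From each other list, up to 4 genes past an adjusted p of 0.05, those of largest change, and up to 2 of the opposite direction, were named, with other members added where their role bears on an ADAM protease. The members and lists were chosen with earlier results of these data known. Alternatives tried were a block for the replicate number, cyclic loess, centring on housekeeping genes, a filter on signals under 6, array weights, a fit with trend and robust settings, the methods' t-test, leaving out each array, leaving out _s_at and _x_at probe sets, 2 other ways to represent a gene and the thresholds of the methods.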

Additional observations from a re-analysis of the deposited data

Results flagged for a closer look

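Of 74 groups of 4 arrays, those of the 36 ADAM probe sets and of HMGA1 206074_s_at, 1 held an array far from the other 3. In the dim ADAM23 probe set 206046_at, siCTRL replicate 3 read 5.29 while the nearest siCTRL array read 5.46, a gap of 0.865 of the range of that group. Chance alone flags about 1 in 20 groups.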

How the results depend on the processing

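At an adjusted p under 0.05, all 9 called ADAM probe sets kept their direction and their call in each alternative fit of probe sets that measured them. This leaves out the thresholds of the methods and the 2 other ways to represent a gene, as do the 544 values below. Of 544 values of ADAM probe sets under an alternative, 541 kept their side of the threshold and 3 newly passed it. These were ADAM22 206616_s_at with housekeeping centring (0.19, adjusted p = 0.0398 from limma), ADAM12 202952_s_at without siCTRL replicate 3 (-0.30, adjusted p = 0.0390 from limma) and ADAM22 206615_s_at without siCTRL replicate 4 (-0.36, adjusted p = 0.0187 from limma). Of the 541 values, 59 changed sign with no call made either way. Without _s_at and _x_at probe sets, 3 ADAM probe sets were higher, and HMGA1 had no value since both its probe sets carry such names. With the thresholds of the methods, 1 was lower, that of ADAM19, and 0 higher, so the other called ADAM probe sets did not pass. Leaving out 1 array gave 2 to 3 lower and 7 higher ADAM probe sets, 3 to 6 differing pairs, 11 to 12 lower and 17 to 22 higher pathway genes, and HMGA1 at -2.50 to -2.34. The cause of these shifts was not tested.

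Same-numbered deviations correlated at 0.0503, 0.217, 0.0661 and -0.141, and those of unlike numbers at -0.242 to 0.184. The titles put the letters exp before each number. Whether a shared number marks a shared experiment is not stated beyond that, and so few values cannot settle it. With the number as a block, 2 ADAM probe sets were lower and 7 higher, 5 pairs differed, 12 pathway genes were lower and 25 higher, and HMGA1 stayed at -2.42. Over all probe sets the block gave 5623 lower and 6130 higher calls, against 5695 and 6385 without it. Scaling moved the balance of all calls, with 47.1% lower in the main fit, 52.3% with cyclic loess and 29.1% with centring on the 8 of 11 housekeeping genes that had a probe set, which moved the median of all probe sets to 0.09. Of these 8 genes, 3 were themselves called in the main fit. With that centring 2 ADAM probe sets were lower and 8 higher. Of the called genes named around the ADAM proteases, BTC, RHBDF1, DLG1, PSEN2, APH1A, SRC, TSPAN5 and RECK lost their call in 1 to 7 alternatives. The adjusted p-values there reached up to 0.125, from limma in all settings but the t-test. BTC lost its call only with that t-test. Apart from JAG1, for which lost calls and sign changes were not counted, none of the called genes named from the 10 lists changed sign. Sign changes were not counted for the genes named without a call.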
